A study of Mus musculus with 57 samples.

Results

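Inguinal white adipose tissue (WAT), a subcutaneous fat depot, was compared between chow-fed male mice homozygous for the Mfn2 R707W substitution (KI) and wild-type (WT) littermates. All samples labelled as inguinal WAT on chow were taken, which gave 13 of the 57 samples in the series, 6 KI and 7 WT. Each sample was 1 mouse and 1 library of bulk polyA RNA. The KI line was made by CRISPR editing on a C57BL/6J background, came from a single founder and also carries a silent change that adds an EcoRV site, so KI and WT differ by the whole edited allele. Allocation to chow took place at 5 weeks of age and the diet lasted 6 months. The same depot on a high-fat diet (HFD, 45% of calories as fat, 8 mice per genotype) was used only to ask where the chow effect differed.

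Mitofusin 2 is a GTPase of the outer mitochondrial membrane that joins mitochondria to each other and helps to hold them close to the endoplasmic reticulum (ER). The matching substitution in people is associated with a lipodystrophy in which fat overgrows in the upper body and is lost elsewhere. Damage to mitochondria is commonly relayed through the integrated stress response (ISR), in which phosphorylation of eIF2α slows general translation and favours that of Atf4. Atf4 and its partners of the C/EBP family bind a composite DNA element in genes for amino acid synthesis, tRNA charging, redox balance and feedback on the response.

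The libraries held 8668279 to 11720458 counts in WT mice (median 9976124) and 8921120 to 11229208 in KI mice, and levels are given as CPM, counts scaled to a library of 1000000. Adipocyte markers (Adipoq, Plin1, Fabp4 and 5 others) summed to 37980 to 41930 CPM in 11 of 13 mice. The exceptions were WT mouse 4 at 28500 CPM and KI mouse 4 at 31440 CPM. In KI mouse 4, 20 skeletal muscle markers summed to 100500 CPM, against 153 to 1164 CPM in the other 12 mice, so every result below was recomputed without that mouse. WT mouse 4 stood apart in mesothelial markers (105 CPM against 0.467 to 2.78), epithelial markers (154 CPM against 4.98 to 10.4) and macrophage markers (1949 CPM against 543 to 1204). KI mouse 3 stood apart in lymphocyte markers (599 CPM, with 156 CPM the highest elsewhere). Csn2 and Wap, which mark mammary secretory cells, were at 0 in every mouse. A second recomputation, chosen after these values were seen, left out KI mice 3 and 4 and WT mouse 4 together. Beyond these recomputations, the part of transcripts from other tissues in the results was not tested.

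Of 14629 genes tested, 479 were called at an adjusted p below 0.01 (edgeR quasi-likelihood test with Benjamini-Hochberg adjustment), which is 3.27%. Of these, 301 (2.06%) were higher and 178 (1.22%) lower in KI mice. In 385 of the 479 the genotypes did not overlap at all, against 4.36% of all genes tested. A stricter pair of thresholds, used for the study's volcano plot (absolute log2 fold change above 1.5 and adjusted p below 0.001) kept 59 genes (0.403%), 43 higher and 16 lower. When KI mouse 4 was left out, 402 of 14783 genes were called (2.72%), of which 256 (1.73%) were higher and 146 (0.988%) lower. The fits with and without that mouse shared 358 calls, all 479 genes kept their direction, and none of the 121 lost calls had an adjusted p above 0.0235. With KI mice 3 and 4 and WT mouse 4 left out, 378 genes were called. Across the 13 fits that each left out 1 mouse, 240 genes were called every time, 154 higher and 86 lower. Such genes are described below as called in all 13 leave-one-out fits. DESeq2, fitted to the same genes, called 1121, including all 479.

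**Figure D1:**
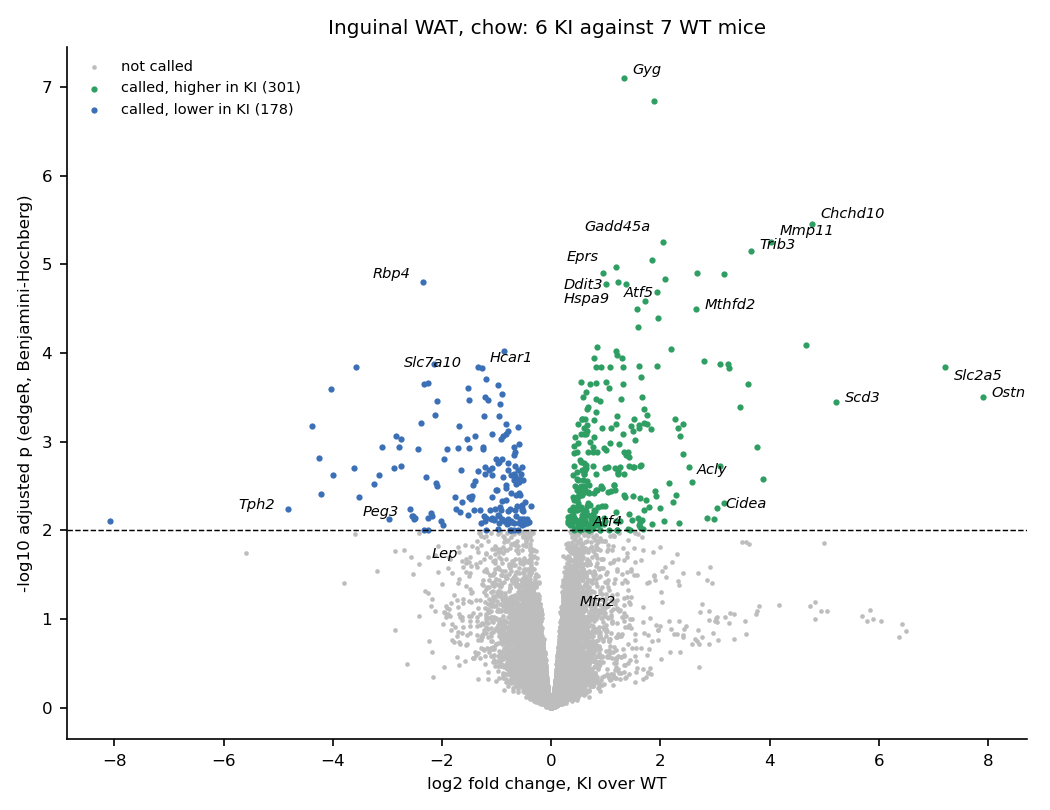
Log2 fold change of KI over WT (x axis) against the -log10 adjusted p of edgeR (y axis) for 14629 genes in inguinal WAT on chow, 6 KI and 7 WT mice. The dashed line marks an adjusted p of 0.01, with 301 genes called higher (green) and 178 called lower (blue). Gyg lies highest and Ostn and Slc2a5 lie farthest to the right.

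Mfn2 mRNA itself was measured first. It ranged from 129 to 219 CPM in WT mice (median 209) and from 207 to 272 CPM in KI mice (median 253), so the groups overlapped. It was not called (log2 fold change 0.37 ± 0.12, adjusted p = 0.0789). A 2-sided exact permutation test of the difference of 55.2 CPM between the means gave p = 0.00874, or 0.0109 adjusted over the 10 genes tested in this way. The same test without KI mouse 4 gave p = 0.0227, or 0.0284 adjusted. Gene counts do not show the substituted base, so these levels do not check the genotype. Mfn1, the other mitofusin, had a log2 fold change of 0.20, adjusted p = 0.255. None of 13 tested genes for mitochondrial fusion and fission was called, with or without KI mouse 4, and 11 of 13 had a positive log2 fold change with a median of 0.14. Opa1, which fuses the inner membrane, had a log2 fold change of 0.18, adjusted p = 0.227.

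Several genes of the ISR rose, with wide gaps between the genotypes. Of 25 ISR transcription factors and regulators, 7 rose and 0 fell, 28.0% against 3.27% of all genes tested, and all 7 were called in all 13 leave-one-out fits. The median log2 fold change of the list was 0.36, against 0.00 over all genes tested. Trib3, a pseudokinase that feeds back on Atf4, ranged from 8.23 to 16.9 CPM in WT mice (median 11.4) and from 66.2 to 249 CPM in KI mice (median 153). KI mice were all above WT mice (log2 fold change 3.66 ± 0.27, adjusted p = 7.01e-06). Chac1, which degrades glutathione, ranged from 4.68 to 9.36 CPM in WT mice (median 6.06) and from 15.5 to 44.5 CPM in KI mice (median 32.6), again without overlap (log2 fold change 2.19 ± 0.23, adjusted p = 8.95e-05). Atf5, a transcription factor of the mitochondrial stress response, ranged from 153 to 302 CPM in WT mice (median 247) and from 748 to 1516 CPM in KI mice (median 978). The groups were fully apart (log2 fold change 2.09 ± 0.18, adjusted p = 1.45e-05), and KI mouse 1 was the highest at 1516 CPM. Gadd45a, a growth arrest gene, ranged from 18.1 to 37.2 CPM in WT mice (median 25.7) and from 93.2 to 126 CPM in KI mice (median 105). Every KI mouse exceeded every WT mouse by a wide margin (log2 fold change 2.05 ± 0.16, adjusted p = 5.53e-06).

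The remaining called members of the list were Ddit3, Ppp1r15a and Nupr1. Ddit3, which encodes the transcription factor Chop, ranged from 41.0 to 60.3 CPM in WT mice (median 49.4) and from 85 to 138 CPM in KI mice (median 118) and rose without overlap (log2 fold change 1.23 ± 0.11, adjusted p = 1.60e-05). Ppp1r15a directs a phosphatase to eIF2α and so ends the response. It rose from a WT median of 19.8 CPM to a KI median of 38.4 CPM (log2 fold change 1.07 ± 0.13, adjusted p = 2.50e-04). Nupr1, a stress-induced chromatin protein, rose from 133 to 261 CPM by the same measure (log2 fold change 1.01 ± 0.12, adjusted p = 2.15e-04). Atf4 mRNA fell just short of a call. It ranged from 171 to 207 CPM in WT mice (median 188) and from 187 to 362 CPM in KI mice (median 309), with KI mouse 1 inside the WT range (log2 fold change 0.61 ± 0.13, adjusted p = 0.0101). Atf4 passed without KI mouse 1 (adjusted p = 0.00112) or KI mouse 3 (adjusted p = 0.00881) and in DESeq2 (adjusted p = 2.23e-04), and without KI mouse 4 its adjusted p was 0.0232.

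Secreted products of the response were less certain. Gdf15, a hormone that suppresses appetite, ranged from 0.610 to 9.63 CPM in WT mice (median 1.63) and from 6.20 to 18.0 CPM in KI mice (median 13.2). WT mouse 4 was the highest WT mouse and overlapped the KI range (log2 fold change 2.08 ± 0.53, adjusted p = 0.0258). Without WT mouse 4 the adjusted p of Gdf15 was 0.00110, and DESeq2 gave 8.46e-04 with all mice. Fgf21, a metabolic hormone, was low in both genotypes, ranging from 0.0994 to 2.70 CPM in WT mice (median 0.585) and from 1.54 to 4.42 CPM in KI mice (median 2.68), and was not called (log2 fold change 1.48 ± 0.54, adjusted p = 0.0996). Oma1 and Dele1, which relay mitochondrial stress to the ISR in the cytosol, had log2 fold changes of -0.19 and 0.12 (adjusted p = 0.351 and 0.502). Atf3, Ddit4 and Sesn2, which are also ISR genes, had log2 fold changes of -0.93, -0.68 and -0.13 with adjusted p of 0.339, 0.193 and 0.797.

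**Figure D2:**
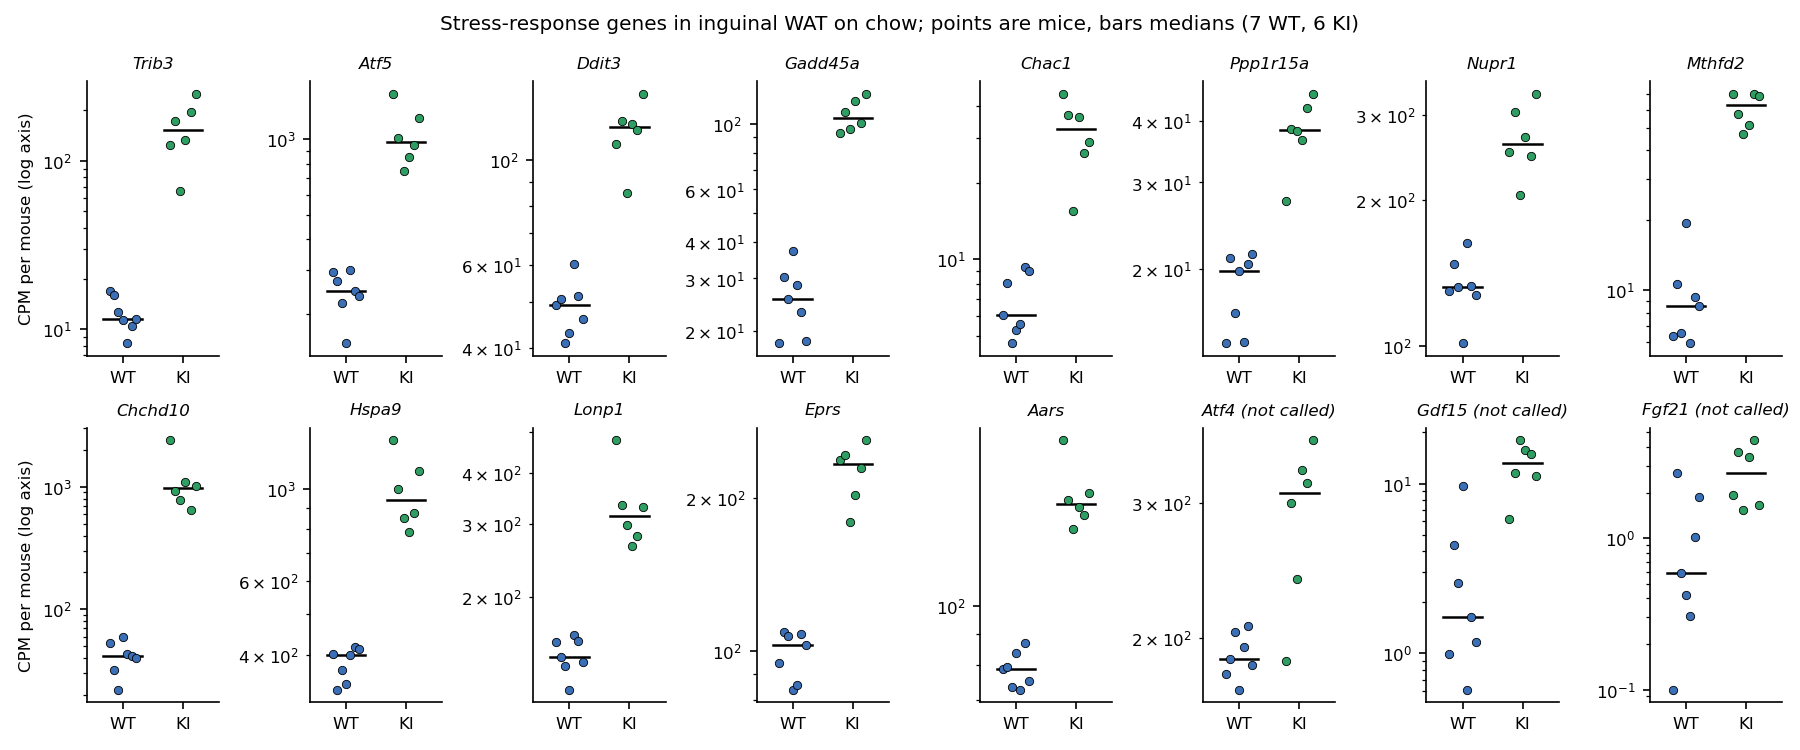
CPM of 16 stress-response genes in each mouse (points; bars are medians; y axes are logarithmic) in 7 WT (blue) and 6 KI (green) mice. The 13 called genes show no overlap between the genotypes, whereas Atf4, Gdf15 and Fgf21 overlap and were not called.

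Promoters were searched because the called genes include known Atf4 targets. The composite element was searched as TGATGNAA on both strands in RefSeq promoters (250 bases before to 50 after the start). It was present in 16 of 229 genes called higher that had a promoter in the table (6.99%, exact 95% interval 4.05 to 11.1). It was also present in 9 of 123 called lower (7.32%, 3.40 to 13.4) and in 292 of 10719 tested (2.72%, 2.42 to 3.05). The share among ISR genes was 7 of 22, and among tRNA synthetases 5 of 12. A match is a description of the letters and not evidence of binding, and the intervals cover counting error only. The stretches below are 5′ to 3′ on the gene's strand, from RefSeq on GRCm38.p6, with the matches in capitals, and they are shown for 4 strongly raised genes and 1 synthetase. Chchd10 (chr10:75932985-75933125, plus strand) holds 2 copies, starting at bases -85 and -72 from the start. Chac1 (chr2:119350992-119351116, plus), Nupr1 (chr7:126625513-126625640, minus) and Aars (chr8:111033670-111033841, plus) hold a copy upstream at -193, -110 and -112. Trib3 (chr2:152344028-152344057, minus) holds a copy 14 bases into the transcript. Aars also holds a copy 9 bases into the transcript, beyond the stretch shown. The promoters of Atf5, Ddit3, Mmp11 and Slc2a5, which also rose, held no match in this window.
Chchd10: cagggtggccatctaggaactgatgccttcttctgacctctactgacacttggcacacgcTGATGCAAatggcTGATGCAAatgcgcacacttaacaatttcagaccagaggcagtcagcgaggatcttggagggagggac
Chac1: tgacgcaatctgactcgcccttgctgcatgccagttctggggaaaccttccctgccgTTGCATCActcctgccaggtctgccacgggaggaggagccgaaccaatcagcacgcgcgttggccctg
Nupr1: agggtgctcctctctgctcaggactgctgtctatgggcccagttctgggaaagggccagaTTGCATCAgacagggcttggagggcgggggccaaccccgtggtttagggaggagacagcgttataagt
Trib3: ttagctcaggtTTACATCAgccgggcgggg
Aars: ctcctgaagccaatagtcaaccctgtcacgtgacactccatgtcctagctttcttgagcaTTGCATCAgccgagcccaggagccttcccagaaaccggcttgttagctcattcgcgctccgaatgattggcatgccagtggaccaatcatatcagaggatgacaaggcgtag

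Amino acid synthesis and tRNA charging followed. Of 19 cytosolic aminoacyl-tRNA synthetases, which load amino acids onto tRNAs, 8 rose and 0 fell (42.1%, median log2 fold change 0.38), and all 8 were called in all 13 leave-one-out fits and without KI mice 3 and 4 and WT mouse 4. Eprs ranged from 83.7 to 109 CPM in WT mice (median 102) and from 179 to 260.2 CPM in KI mice (median 234) and Aars from 72.7 to 86.7 CPM in WT mice (median 78.8) and from 134 to 187 CPM in KI mice (median 147). Neither overlapped (log2 fold changes 1.2 ± 0.10 and 0.94 ± 0.08, adjusted p = 1.08e-05 and 1.25e-05). The other 6 calls were smaller, from 0.68 for Sars and 0.61 for Gars through 0.59 for Cars, 0.54 for Farsb and 0.52 for Yars to 0.42 for Nars. Of 23 tested enzymes of serine, proline and one-carbon metabolism, 4 rose and 0 fell (17.4%). Mthfd2, the mitochondrial folate dehydrogenase, ranged from 5.89 to 19.5 CPM in WT mice (median 8.52) and from 47.0 to 70.1 CPM in KI mice (median 62.8). Its lowest KI mouse stood well above the highest WT mouse (log2 fold change 2.66 ± 0.25, adjusted p = 3.16e-05). Aldh18a1, which starts proline synthesis, rose from a median of 12 to 21.9 CPM (log2 fold change 0.82 ± 0.10, adjusted p = 1.45e-04). Asns, which makes asparagine, rose by 0.88 and kept its call in 2 of 13 leave-one-out fits, those without KI mouse 3 or KI mouse 4, with an adjusted p of up to 0.0213 in the others. Pycr1, which makes proline, rose by 0.89 and kept its call in 2 of 13 leave-one-out fits, those without WT mouse 4 or KI mouse 3, with an adjusted p of up to 0.0271 in the others (0.0226 without KI mouse 4). Phgdh and Psat1, the first enzymes of serine synthesis, were not called (log2 fold changes 0.28 and 0.58, adjusted p = 0.176 and 0.0201), and for Phgdh the KI effect was smaller on chow than on HFD (interaction -0.89 ± 0.15, adjusted p = 0.00113). Among 15 amino acid transporters 1 was called (6.67%, against 3.27% of all genes tested). It was a fall of Slc7a10, the adipocyte transporter of small neutral amino acids, from a median of 349.8 to 121 CPM (log2 fold change -1.33 ± 0.16, adjusted p = 1.45e-04).

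Some chaperones of the mitochondrial matrix rose. Of 21 genes for mitochondrial chaperones and proteases and for CHCHD, MICOS and prohibitin proteins, 7 rose and 0 fell (33.3%), 21 of 21 log2 fold changes were positive, and the median was 0.29. In the fit without KI mouse 4 there were 8 calls, Grpel1 being added. Hspa9, the matrix Hsp70, ranged from 329 to 418 CPM in WT mice (median 399) and from 787 to 1308 CPM in KI mice (median 939). It did not overlap between genotypes (log2 fold change 1.38 ± 0.13, adjusted p = 1.68e-05). Lonp1, the only protease called, ranged from 119.6 to 163 CPM in WT mice (median 143) and from 266 to 478 CPM in KI mice (median 314), also without overlap (log2 fold change 1.19 ± 0.13, adjusted p = 9.44e-05). The matrix chaperonin genes Hspd1 and Hspe1, whose annotated spans overlap on opposite strands, rose by 0.65 and 0.70, and the co-chaperone gene Dnaja3 by 0.79. Chchd3, a component of the complex that shapes cristae, rose by 0.57. Of 24 genes for ER chaperones, protein folding and quality control, 3 rose (12.5%): Ero1l, an oxidase of folding proteins (log2 fold change 1.09 ± 0.16, adjusted p = 7.03e-04), Derl1, which helps to export misfolded proteins (log2 fold change 0.99 ± 0.16, adjusted p = 0.00199), and Sel1l (log2 fold change 0.49 ± 0.09, adjusted p = 0.00556). Sel1l kept its call in 5 of 13 leave-one-out fits, those without WT mouse 2, WT mouse 4, KI mouse 3, KI mouse 4 or KI mouse 5, with an adjusted p of up to 0.0171 in the others. Hspa5, the main ER Hsp70, had a log2 fold change of 0.11, adjusted p = 0.580, and Xbp1, a transcription factor of the ER unfolded protein response, had 0.31, adjusted p = 0.168. The difference between the mitochondrial and ER shares was not itself tested.

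The largest change in the mitochondrial list was at Chchd10, a protein of the space between the mitochondrial membranes. It ranged from 22 to 59.6 CPM in WT mice (median 41.9) and from 650.3 to 2389 CPM in KI mice (median 970.1). Every KI mouse was far above every WT mouse, 27.4-fold in the fit (log2 fold change 4.78 ± 0.33, adjusted p = 3.51e-06), and the log2 fold change was 4.78 without KI mouse 4. Chchd10 (chr10:75933130-75937747, plus strand) lies over Mmp11, a matrix metalloproteinase (chr10:75923222-75936496, minus strand), and they share 3367 bases. Mmp11 ranged from 33.5 to 79.6 CPM in WT mice (median 51.2) and from 547 to 1872 CPM in KI mice (median 816) (log2 fold change 4.02 ± 0.30, adjusted p = 5.53e-06). Gm867 (chr10:75937723-75940672, minus strand), a predicted gene that shares 25 bases with the far end of Chchd10, rose as well (log2 fold change 4.67 ± 0.46, adjusted p = 8.13e-05). The strand setting of the counting is not given in the sources used here, so the 3 genes cannot be told apart with certainty. All 3 rose less on HFD, with interactions of 2.15 ± 0.36, 2.18 ± 0.35 and 2.32 ± 0.45 (adjusted p = 0.00117, 7.73e-04 and 0.00491).

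Some lipogenic genes rose on chow, with a wide spread among KI mice. Of 23 genes for de novo lipogenesis and fructose entry, 7 rose and 0 fell (30.4%), and the median log2 fold change of 0.96 was the highest of the 27 pathway lists. Without KI mouse 1 the median was 0.60 and 6 were called. The summed level ranged from 9905 to 20740 CPM in WT mice (median 16130) and from 13310 to 65900 CPM in KI mice (median 22250). KI mouse 1 was the highest, and KI mice 2, 4 and 5 (20030, 19670 and 13310 CPM) lay within the WT range. Slc2a5, the fructose transporter, ranged from 0.102 to 0.795 CPM in WT mice (median 0.233) and from 11.3 to 174 CPM in KI mice (median 31.8). It was close to absent in WT mice and above 11 CPM in every KI mouse (log2 fold change 7.22 ± 0.77, adjusted p = 1.45e-04). Scd3, a stearoyl-CoA desaturase with close paralogs that could share reads, was at 0 in most WT mice with a WT maximum of 0.502 CPM, and ranged from 3.12 to 16.2 CPM in KI mice (log2 fold change 5.22 ± 0.68, adjusted p = 3.56e-04). Acly, which makes cytosolic acetyl-CoA from citrate, ranged from 113 to 218 CPM in WT mice (median 151) and from 307 to 2277 CPM in KI mice (median 615). The groups were apart (log2 fold change 2.52 ± 0.40, adjusted p = 0.00195), and KI mouse 1 was the highest. Tkt, of the pentose phosphate pathway, rose from a median of 576 to 2201 CPM (log2 fold change 2.32 ± 0.33, adjusted p = 7.04e-04). These 4 genes were called in all 13 leave-one-out fits. KI mouse 1 had the highest CPM in 151 of the 301 genes called higher, and KI mouse 4 in 54.

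Other members of the list depended on single mice. Elovl6, a fatty acid elongase, rose by 3.17 and kept its call in 6 of 13 leave-one-out fits, those without WT mouse 5, KI mouse 1, KI mouse 2, KI mouse 4, KI mouse 5 or KI mouse 6, with an adjusted p of up to 0.0140 in the others. Acaca, which makes malonyl-CoA for fatty acid synthesis, rose by 2.23 and lost its call without WT mouse 3, WT mouse 6 or WT mouse 7 (adjusted p up to 0.0131). Acacb, whose malonyl-CoA restrains fatty acid oxidation, rose by 1.99 and kept its call in 4 of 13 leave-one-out fits, those without WT mouse 1, WT mouse 7, KI mouse 4 or KI mouse 5, with an adjusted p of up to 0.0146 in the others. Fasn, fatty acid synthase, ranged from 813 to 3093 CPM in WT mice (median 1725) and from 1985 to 18930 CPM in KI mice (median 4535). KI and WT mice overlapped and Fasn was not called (log2 fold change 2.00 ± 0.46, adjusted p = 0.0153), although DESeq2 gave an adjusted p of 0.00330. The same 7 genes of the list were called without KI mouse 4, and without KI mice 3 and 4 and WT mouse 4 only Slc2a5, Scd3 and Tkt, with Acly at 0.0129. The transcription factor genes Srebf1 and Mlxipl (which encodes ChREBP) were not called, with log2 fold changes of 0.89 and 0.96 and adjusted p of 0.0276 and 0.0819. A sterol regulatory element, searched as TCACNCCAC on both strands, was present in 1 of 20 promoters of the list and in 1.37% of all.

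The calls among glycolytic genes were all rises. Of 20 glycolytic genes, 5 rose and 0 fell (25.0%, median 0.67). Pkm, pyruvate kinase, ranged from 371 to 489 CPM in WT mice (median 436) and from 710.2 to 2081 CPM in KI mice (median 1105) (log2 fold change 1.6 ± 0.23, adjusted p = 6.49e-04). No KI mouse fell within the WT range, and KI mice 1 and 4 were the highest. Gapdh and Aldoa are abundant in muscle and both were highest in KI mouse 4 (5256 and 11950 CPM). Aldoa kept its call in 6 of 13 leave-one-out fits, those without WT mouse 4, KI mouse 2, KI mouse 3, KI mouse 4, KI mouse 5 or KI mouse 6, with an adjusted p of up to 0.0130 in the others. Their log2 fold changes were 1.51 and 1.74 with all mice and 1.21 and 1.28 without that mouse, when both were called (adjusted p = 0.00128 and 0.00210). Gpi1 rose by 1.22 and was called in all 13 leave-one-out fits. Eno1, enolase, rose by 1.19 and kept its call in 4 of 13 leave-one-out fits, those without KI mouse 1, KI mouse 4, KI mouse 5 or KI mouse 6, with an adjusted p of up to 0.0170 in the others.

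Of 30 genes for the TCA cycle and pyruvate entry, 8 rose and 0 fell (26.7%, median 0.52). The largest called rise was at Pdhb, a subunit of pyruvate dehydrogenase. It ranged from 172 to 286 CPM in WT mice (median 231) and from 411 to 1210 CPM in KI mice (median 525) (log2 fold change 1.54 ± 0.23, adjusted p = 9.53e-04). Its partners Pdha1 and Dlat rose by 1.05 and 0.97, and Mpc1, which carries pyruvate into mitochondria, by 1.33 (adjusted p = 0.00195, 0.00117 and 0.00231). Together with Idh3b (0.61) these were called in all 13 leave-one-out fits. The calls of Cs, Pck2 and Pdk4 ended without KI mouse 4 (adjusted p = 0.0145, 0.0102 and 0.0196), and these 3 were called in at most 3 of 13 leave-one-out fits.

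The lowest adjusted p of all genes belonged to Gyg, the primer of glycogen synthesis. It ranged from 86.6 to 102 CPM in WT mice (median 91.9) and from 214 to 248 CPM in KI mice (median 233). The spread within each genotype was small beside the gap between them (log2 fold change 1.33 ± 0.07, adjusted p = 8.00e-08), and the values were 1.31 and 5.54e-07 without KI mouse 4. Glycogen genes were looked up after this value was seen. The branching enzyme gene Gbe1 and the phosphorylase gene Pygl rose by 1.25 and 1.62 (adjusted p = 0.00107 and 7.03e-04), and both were called in all 13 leave-one-out fits.

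The chow effect on several of these genes differed from the effect on HFD. The interaction of genotype and diet, tested in 17400 genes over 29 mice, was called in 147 (0.845%). In 101 (0.58%) the KI effect was more positive on chow and in 46 (0.264%) less so. Diets differed in counts per mouse and stood in separate tables, so diet itself cannot be told apart from the batch, whereas genotypes were compared within each table. Lipogenesis was the list with most such genes, 8 of 24 (33.3%), of which 7 were more positive on chow and 1, Fads1, less so. Scd2 and Pnpla3, also among the 8, were not called on chow and were lower in KI mice on HFD. The log2 fold change of Acly was 2.52 on chow and -0.04 on HFD (interaction 2.53 ± 0.40, adjusted p = 7.73e-04). Fasn stood at 2.00 and -0.92 (adjusted p of the interaction 0.00367), and Elovl6 at 3.17 and -0.41 (0.00124). Slc25a1, the citrate exporter, and Me1, malic enzyme, were not called on chow (1.86 and 1.66, adjusted p = 0.0174 and 0.0119), but their interactions were 2.91 and 2.18 (adjusted p = 7.73e-04 and 0.00145). Pdhb, Dlat, Pkm, Gapdh, Eno1, Aldoa and Gyg also had a larger KI effect on chow, by 0.64 to 1.55 on the log2 scale. The interaction calls of Gapdh and Aldoa ended without KI mouse 4 (adjusted p = 0.0115 and 0.0134).

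In some stress-response lists no such difference was called. The interaction was called in 0 of 25 ISR regulators, 0 of 19 tRNA synthetases and 0 of 24 genes of ER folding and quality control. The share over all genes tested was 0.845%, so lists of this size may hold no call. It was called in 2 of 23 enzymes of serine, proline and one-carbon metabolism, Phgdh and Gpt2, both less positive on chow. In the mitochondrial chaperone list it was called in 1 of 21, Chchd10. Trib3 rose by 3.66 on chow and 3.18 on HFD (interaction 0.46 ± 0.34), and Mthfd2 by 2.66 and 2.42 (interaction 0.22 ± 0.27). A missing call does not show that the effects were equal, and Chac1 came close (interaction 1.39 ± 0.31, adjusted p = 0.0117). On HFD alone 1886 of 16471 genes were called (11.5%), with 17572752 to 25680411 counts per mouse and more mice. Of the 475 chow calls that were tested there, 271 (57.05%) were also called, 266 of them in the same direction, and these made up 14.37% of the HFD calls. The interaction was called in 107 genes without KI mouse 4, of which 96 were among the 147, and without KI mouse 1 in 69. Which single genes kept their interaction call without KI mouse 1 is not given here.

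**Figure D3:**
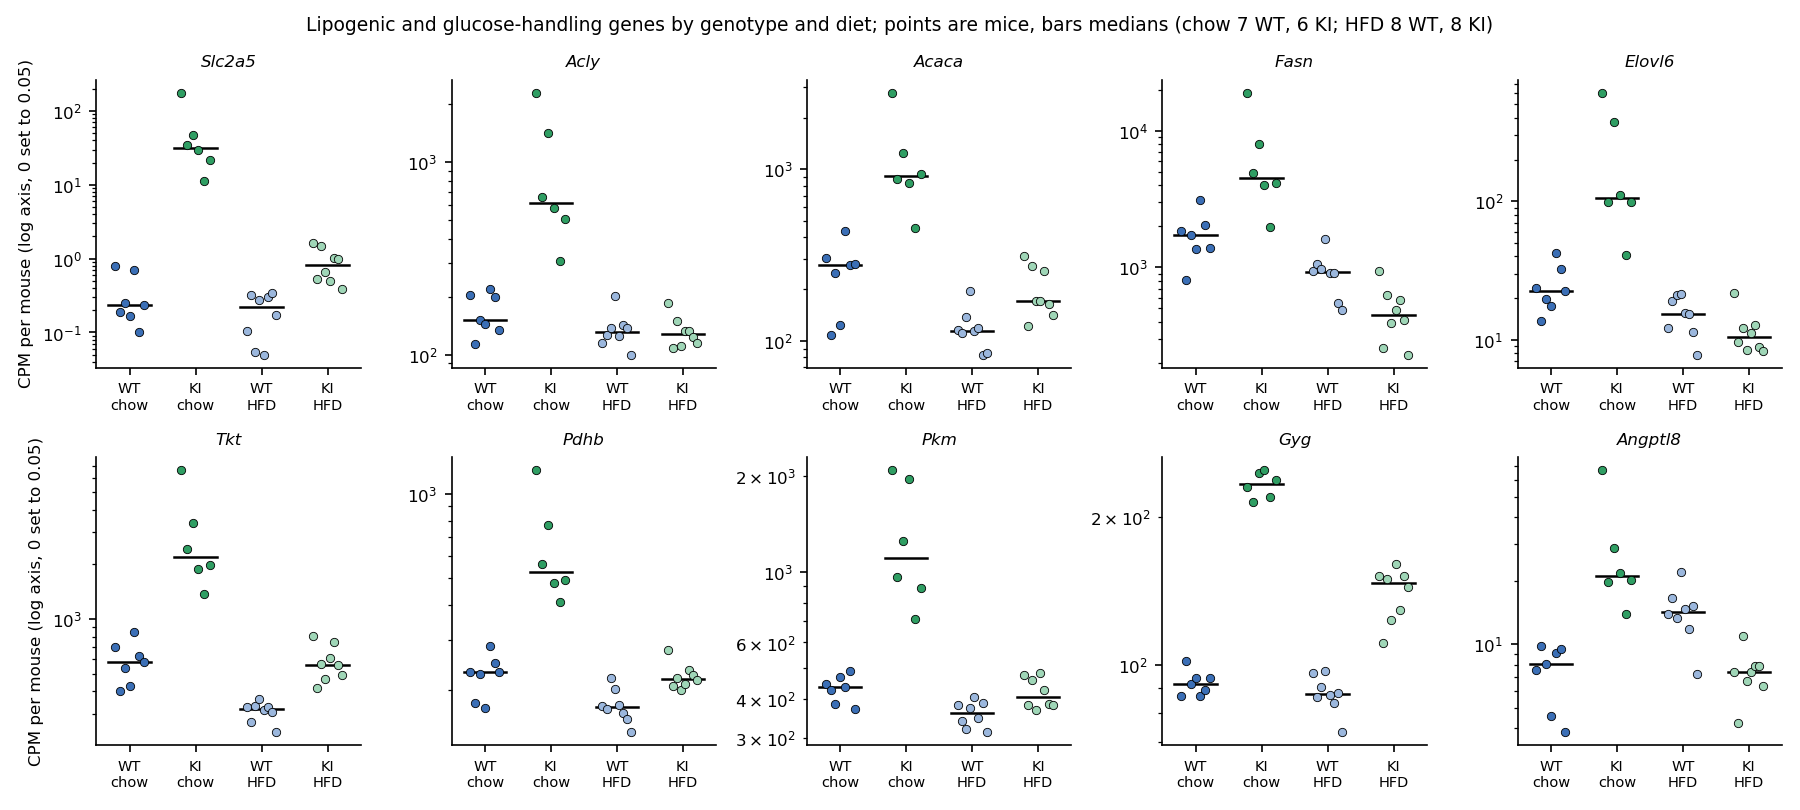
CPM of 10 lipogenic, glycolytic and secreted-factor genes in each mouse (points; bars are medians; logarithmic y axes, with 0 drawn at 0.05) for WT and KI on chow (7 and 6 mice) and on HFD (8 and 8 mice). The KI median lies above the WT median on chow in each panel, and KI mouse 1 on chow is the top point drawn in 9 of 10. For Fasn, Elovl6 and Angptl8 KI medians lie below WT medians on HFD. Each diet was scaled on its own and had other count totals per mouse, so heights cannot be set against each other between diets.

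Few genes of the respiratory chain were called, and for those encoded by mitochondrial DNA the result turned on KI mouse 4. Of 75 nuclear-encoded subunits, 73 had a positive log2 fold change with a median of 0.38, but only 2 were called (2.67%, near the 3.27% of all genes). They were Ndufa10 (log2 fold change 0.57 ± 0.11, adjusted p = 0.00399), called in 11 of 13 leave-one-out fits but not without WT mouse 2 or 3 (highest adjusted p 0.0114), and Sdhb (log2 fold change 0.68 ± 0.14, adjusted p = 0.00849), which kept its call in 2 of 13 leave-one-out fits, those without WT mouse 4 or WT mouse 5, with an adjusted p of up to 0.0221 in the others. Their summed level ranged from 12820 to 20270 CPM in WT mice (median 17750) and from 19250 to 28410 CPM in KI mice (median 22220). The 12 tested mRNAs encoded by mitochondrial DNA summed to 20350 to 45560 CPM in WT mice (median 30630). In KI mice they summed to 14560 to 17030 CPM in 5 mice and to 38800 CPM in KI mouse 4, the mouse with muscle transcripts. The 5 therefore lay below every WT mouse and KI mouse 4 lay inside the WT range. With all mice 0 of 12 were called (median -0.50). Without KI mouse 4 all 12 were negative and 4 fell, namely mt-Nd6 (-1.51, adjusted p = 5.03e-04), mt-Nd5 (-1.32, 0.00354), mt-Co1 (-1.21, 0.00210) and mt-Nd4 (-0.96, 0.00447). On HFD 13 of 13 were lower in KI mice.

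**Figure D4:**
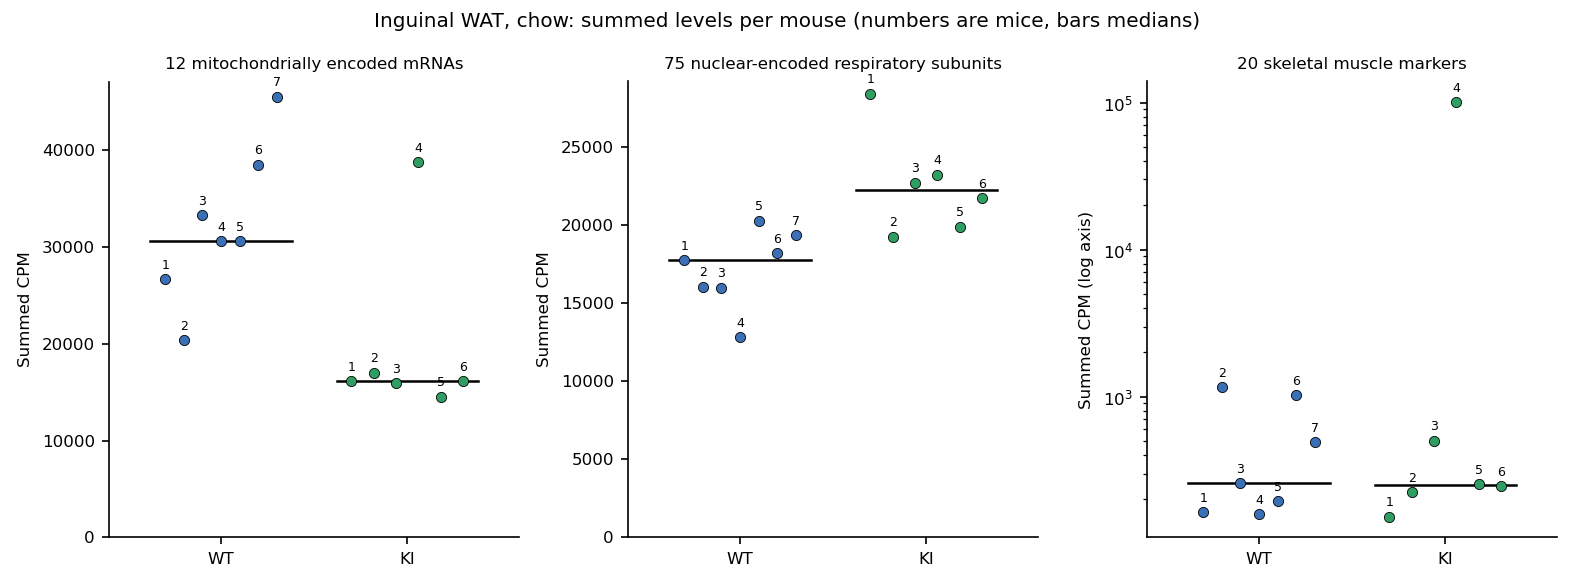
Summed CPM per mouse of 12 mitochondrially encoded mRNAs (left), 75 nuclear-encoded respiratory subunits (middle) and 20 skeletal muscle markers (right, logarithmic axis) in WT (blue) and KI (green) mice on chow; numbers are mice and bars are medians. KI mouse 4 is the only KI mouse within the WT range on the left (38800 CPM) and stands alone on the right (100500 CPM).

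Some other mitochondrial genes were looked up after the results were seen. Slc25a33, which carries pyrimidine nucleotides into mitochondria, ranged from 14.4 to 23.2 CPM in WT mice (median 18.6) and from 36.9 to 78.7 CPM in KI mice (median 53.5) and rose without overlap (log2 fold change 1.58 ± 0.15, adjusted p = 3.16e-05). Lrpprc, which stabilises mitochondrial mRNAs, rose by 0.49 (adjusted p = 0.00271). Both were called in all 13 leave-one-out fits. Cycs, cytochrome c, rose by 0.67 and kept its call in 3 of 13 leave-one-out fits, those without KI mouse 2, KI mouse 5 or KI mouse 6, with an adjusted p of up to 0.0157 in the others. Vdac1, an outer membrane channel, rose by 0.60 and kept its call in 3 of 13 leave-one-out fits, those without KI mouse 3, KI mouse 4 or KI mouse 5, with an adjusted p of up to 0.0200 in the others. Gpd2, the mitochondrial glycerol phosphate dehydrogenase, rose by 1.62 (adjusted p = 0.00190).

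Fatty acid oxidation and brown adipocyte genes included a few strong rises. Acot2, a mitochondrial acyl-CoA thioesterase, ranged from 7.2 to 18.8 CPM in WT mice (median 10.9) and from 32.4 to 66.3 CPM in KI mice (median 43.3). It was the clearest of 4 called among 30 genes of fatty acid uptake and oxidation (13.3%), with log2 fold change 1.94 ± 0.22, adjusted p = 1.42e-04. Slc25a20, which carries acylcarnitines, rose by 0.64 (adjusted p = 0.00198). Hadha and Hadhb, the trifunctional protein, rose by 0.80 and 0.78. Hadha kept its call in 3 of 13 leave-one-out fits, those without KI mouse 1, KI mouse 4 or KI mouse 5, with an adjusted p of up to 0.0164 in the others, and Hadhb lost its call without WT mouse 1, WT mouse 2, WT mouse 5 or KI mouse 2 (adjusted p up to 0.0105). The 6 brown adipocyte markers summed to 39.4 to 125 CPM in WT and 150 to 930 CPM in KI mice. KI mouse 1 was the highest, and the sum moved with genotype. Only Cidea, Cox8b and Otop1 passed the low-count filter and were tested, and Otop1 was not called. The part of the 6 markers in other results was not tested. Ucp1, the defining brown adipocyte gene, was below 1 CPM in every mouse and was not tested. Cox8b, a respiratory subunit of brown fat and muscle, ranged from 20.6 to 64.9 CPM in WT mice (median 37.1) and from 78.1 to 392 CPM in KI mice (median 211) (log2 fold change 2.42 ± 0.37, adjusted p = 0.00139). It lost its call when KI mice 3 and 4 and WT mouse 4 were left out together (adjusted p = 0.0164). Cidea, a lipid droplet protein, rose by 3.03 and kept its call in 4 of 13 leave-one-out fits, those without WT mouse 4, WT mouse 5, KI mouse 4 or KI mouse 5, with an adjusted p of up to 0.0152 in the others. These 2 were the only calls among 16 brown and beige genes (12.5%). Of the 16, 11 had a positive and 5 a negative log2 fold change, the latter including Ppargc1a and Prdm16. Plin5, also on lipid droplets, rose by 1.80 and kept its call in 7 of 13 leave-one-out fits, those without WT mouse 1, WT mouse 4, KI mouse 1, KI mouse 3, KI mouse 4, KI mouse 5 or KI mouse 6, with an adjusted p of up to 0.0152 in the others. Of 30 genes for triglyceride synthesis, droplets and lipolysis, Cidea and Plin5 rose and Hcar1, the adipocyte lactate receptor, fell (log2 fold change -1.28 ± 0.15, adjusted p = 1.49e-04). In bulk tissue a change in the number of cells of a type cannot be told apart from a change in RNA per cell.

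Secreted adipocyte proteins moved both ways. Of 22 tested, 3 rose and 2 fell, which is 22.7% called against 3.27% of all genes tested. Of the 22, 17 had a negative log2 fold change (median -0.34). Rbp4, the retinol carrier, ranged from 465 to 629 CPM in WT mice (median 566) and from 78.8 to 175 CPM in KI mice (median 82.4). All KI mice were below all WT mice, with a mean 5.11 times lower (log2 fold change -2.36 ± 0.21, adjusted p = 1.57e-05), and the fall was larger than on HFD (interaction -1.46 ± 0.28, adjusted p = 0.00411). Retn, resistin, fell by 2.33 times and kept its call in 3 of 13 leave-one-out fits, those without WT mouse 4, KI mouse 1 or KI mouse 3, with an adjusted p of up to 0.0189 in the others (0.0147 without KI mouse 4). Lep, leptin, ranged from 919 to 3339 CPM in WT mice (median 1873) and from 226 to 1266 CPM in KI mice (median 616). The groups overlapped through KI mouse 5 and Lep was not called (log2 fold change -1.5 ± 0.37, adjusted p = 0.0229). Without KI mouse 5 its adjusted p was 0.00811, in DESeq2 it was 2.85e-04, and the 2-sided exact permutation test of mean CPM gave p = 0.00291 (0.00486 adjusted over 10 genes). Adipoq, adiponectin, ranged from 2067 to 4081 CPM in WT mice (median 3105) and from 1795 to 2420 CPM in KI mice (median 1992) and was not called either (log2 fold change -0.63 ± 0.15, adjusted p = 0.0166), with 0.00301 without WT mouse 4, 2.09e-04 in DESeq2 and an exact permutation p of 0.0035 (0.005 adjusted). In the fit without KI mouse 4 the adjusted p of Lep and Adipoq were 0.0490 and 0.0388, and the exact permutation tests gave 0.0105 and 0.0126 adjusted over the 10 genes. Cfd, adipsin, had a log2 fold change of -0.86, adjusted p = 0.212, and DESeq2 gave 0.234.

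Among secreted proteins that rose, Ostn, musclin, was at 0 counts in all 7 WT mice and at 1.35 to 4.50 CPM in KI mice. Its mean in KI mice was at least 10.1-fold higher than a floor of 3 counts per library (adjusted p = 3.15e-04). Ostn stood at 2.58 CPM in KI mouse 4, within the range of the other KI mice. Angptl8, an insulin-responsive regulator of lipoprotein lipase, ranged from 3.85 to 9.88 CPM in WT mice (median 8.11) and from 14 to 66.7 CPM in KI mice (median 21.1) (log2 fold change 1.92 ± 0.35, adjusted p = 0.00415), lost its call without WT mouse 1 or 3 (highest adjusted p 0.0108) and was of the opposite sign on HFD (-0.96, interaction 2.85, adjusted p = 1.59e-04). Nrg4, a secreted ligand of ErbB receptors, rose by 1.17 (adjusted p = 0.00346, and 0.0102 without KI mouse 2). None of 8 adipocyte markers and none of 18 adipogenic transcription factors was called, and Pparg and Cebpa had log2 fold changes of 0.29 and -0.05 (adjusted p = 0.326 and 0.900).

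Of the largest rises among called, non-overlapping genes, several lay outside any list. Mreg, a melanosome and lysosome transport gene, ranged from 0.102 to 2.60 CPM in WT mice (median 0.895) and from 3.31 to 20.6 CPM in KI mice (median 12.3) (log2 fold change 3.78 ± 0.57, adjusted p = 0.00115). Tsku, a secreted protein of adipose tissue and liver, ranged from 5.77 to 10.9 CPM in WT mice (median 8.29) and from 34.4 to 195 CPM in KI mice (median 66.4) (log2 fold change 3.24 ± 0.35, adjusted p = 1.33e-04), and its log2 fold change was 0.52 on HFD (interaction 2.70, adjusted p = 2.06e-04). Soat2, which esterifies cholesterol, rose from at most 1.34 CPM in WT mice to at least 3.38 CPM in KI mice (log2 fold change 3.46 ± 0.46, adjusted p = 4.07e-04). Trim66, A830018L16Rik, Dpysl4 and P2rx3 were at or below 2.65 CPM in every WT mouse and rose by 3.09 to 3.60. P2rx3 encodes an ATP-gated channel of sensory neurons. The rise of Hephl1, a copper oxidase (log2 fold change 3.10 ± 0.51, adjusted p = 0.00190), was opposite to its fall on HFD (-2.37), with the largest interaction among genes tested on each diet by itself (5.46 ± 0.63, adjusted p = 1.47e-05). Elovl3, a brown fat elongase too low to be tested on either diet by itself, had an interaction of 8.27 ± 1.03. Slc2a5 was also too low on HFD to be tested there by itself (interaction 5.12 ± 0.91). Agt, angiotensinogen, had -1.71 on chow (adjusted p = 0.139) and 2.95 on HFD, with an interaction of -4.67 (adjusted p = 5.58e-04). Hspb7, a small heat shock protein, was likewise negative on chow (-1.81, adjusted p = 0.113) and rose on HFD (1.92), with an interaction of -3.75. The remaining genes with the 10 largest interactions were Atp4b (5.08), Hapln4 (5.04), Cib4 (4.30), AA914427 (3.86) and Hebp2 (3.84). In all of them the interaction was positive and KI mouse 1 was the highest. Atp4b and Cib4 were too low to be tested on either diet by itself, and Atp4b was at most 0.0994 CPM in WT mice on chow. Hapln4 was too low on chow to be tested there and fell on HFD (-3.99). The call of Cib4 ended without KI mouse 4 (adjusted p = 0.0115), and Hebp2 rose on chow (1.85) and fell on HFD (-2.01).

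Among genes called without overlap, both with all mice and without KI mouse 4, the largest falls were mostly in genes of low level. Plppr4, a membrane protein best known from neurons, ranged from 3.88 to 10.8 CPM in WT mice (median 5.84) and from 0 to 0.866 CPM in KI mice (median 0.108) (log2 fold change -4.39 ± 0.62, adjusted p = 6.71e-04). D430019H16Rik ranged from 6.95 to 43.1 CPM in WT mice (median 33.8) and from 1.39 to 4.07 CPM in KI mice (median 2.50) (log2 fold change -3.58 ± 0.40, adjusted p = 1.45e-04). Every KI mouse was below every WT mouse in both. Wfdc21, a secreted protease inhibitor family member, fell from a median of 44.5 to 5.26 CPM (log2 fold change -3.10 ± 0.46, adjusted p = 0.00115). Folh1, a folate hydrolase, and Kcnj14, a potassium channel, fell by 8.90 and 6.95 times, and 1700047G03Rik by 7.21 times. Gm7609, Gm16028 and Gm2619 fell by 16.4, 7.34 and 6.78 times. They lie together on chromosome 1, both of the first 2 within the span of Gm2619 (chr1:85156809-85327306) on the other strand, so they are 1 locus and their reads may be shared. Tph2, the serotonin synthesis enzyme of neurons, fell from a median of 18.5 to 1.09 CPM (log2 fold change -4.82 ± 0.90, adjusted p = 0.00582) and kept its call in 6 of 13 leave-one-out fits, those without WT mouse 1, WT mouse 2, WT mouse 3, WT mouse 5, WT mouse 7 or KI mouse 4, with an adjusted p of up to 0.0185 in the others. Pkp1, Grid1, Glra1, Ttc36 and Sez6l also fell, from WT medians of 2.05 to 5.61 CPM to KI medians below 1 CPM, and Sez6l lost its call without KI mouse 1, KI mouse 2 or KI mouse 6 (adjusted p up to 0.0131). Pkp1 and Glra1 passed the low-count filter in only 7 of 13 leave-one-out fits. Pkp1 is a desmosome gene on the epithelial marker list, a list that was high in WT mouse 4, and without KI mice 3 and 4 and WT mouse 4 the fall was -4.34 (adjusted p = 0.00227).

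Further genes were named after their values were seen. Ret, a receptor tyrosine kinase, fell from a range of 27.4 to 67.8 CPM in WT mice to 5.23 to 20.3 CPM in KI mice (log2 fold change -1.96 ± 0.31, adjusted p = 0.00157). Igfals, which stabilises circulating IGF complexes, and Ifi27l2a, an interferon-induced mitochondrial gene, fell by 3.25 and 4.91 times without overlap (adjusted p = 0.00117 and 0.00249). Hsd11b1, which regenerates active glucocorticoid, ranged from 74.9 to 201 CPM in WT mice (median 173) and from 379 to 546 CPM in KI mice (median 473) and rose (log2 fold change 1.64 ± 0.20, adjusted p = 1.88e-04). Pth1r, the parathyroid hormone receptor, rose by 2.16 on chow and was at -0.21 on HFD (interaction adjusted p = 7.73e-04). Mttp, the lipid transfer protein of lipoprotein assembly, and Sqstm1, the autophagy adaptor p62, rose by 1.31 and 0.65 (adjusted p = 8.09e-04 and 7.59e-04). Bdnf, a neurotrophin, fell from a WT median of 1.79 to a KI median of 0.0538 CPM (log2 fold change -4.0 ± 0.68, adjusted p = 0.00240), and passed the low-count filter in only 7 leave-one-out fits. Wnt5a fell by 1.74 times (adjusted p = 0.00209). Apart from Bdnf, each of these 8 was called in all 13 leave-one-out fits.

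Matrix, signalling and immune lists held few calls. Of 37 collagen and matrix genes, 34 had a negative log2 fold change with a median of -0.40, while 2 fell and 1 rose (8.11%). Col6a1 and Col5a2 fell (-0.82 and -0.79) and Postn rose (0.76), each called in at most 3 of 13 leave-one-out fits. The call of Col5a2 ended without KI mouse 4 (adjusted p = 0.0171), and the call of Postn held only without that mouse (adjusted p = 7.60e-04, up to 0.0244 in the others). Fibroblast markers had a median of -0.36 with 0 of 8 called, and macrophage markers a median of -0.44 with 10 of 10 negative and 0 called. Whether fewer cells of these types underlie the values was not tested. None of 22 TGF-beta ligands, receptors and latent binding proteins, 20 insulin signalling genes and 23 interferon-stimulated genes was called, with medians of -0.18, 0.04 and -0.36. Of 22 cholesterol synthesis genes, 17 had a negative log2 fold change with a median of -0.21, and 1 was called (4.55%), lower. Hmgcs1 and Mvk, early enzymes of the pathway, had log2 fold changes of -0.25 and -0.32 (adjusted p = 0.528 and 0.0948). Sqle was at -0.02, adjusted p = 0.966, and its sign changed when single mice were left out. On HFD 21 of 23 cholesterol genes had a negative log2 fold change. Of these 23, 13 were called lower (56.5%), where 11.5% of all genes tested were called in either direction. The interaction was called for Insig1 and Nsdhl (8.7%, against 0.845% of all genes tested).

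Few calls were made in some other lists. Clock genes had 3 calls among 19 (15.8%). The lists of NRF2, mTORC1, p53 and imprinted genes held 1 call each (4.76%, 5.0%, 5.0% and 6.25%), near the 3.27% of all genes tested. A single call in a list of this size is not a result about the list. In the clock list Bhlhe40 rose (log2 fold change 1.40 ± 0.22, adjusted p = 0.00130) and was called in all 13 leave-one-out fits, whereas Ciart (1.48) and Bhlhe41 (0.96) were called in 3 and 2 of them, and Bhlhe41 was at 0.0169 without KI mouse 4. Among 21 NRF2 targets and carbonyl reductases Gsta3, a glutathione transferase, rose by 0.98 and kept its call in 3 of 13 leave-one-out fits, those without WT mouse 1, KI mouse 4 or KI mouse 5, with an adjusted p of up to 0.0195 in the others. Among 20 genes of mTORC1 and its targets only Flcn, a nutrient-sensing regulator, rose (0.73), and its call ended without KI mouse 4 (adjusted p = 0.0147). Gadd45a was the single call among 20 p53 targets. Among 16 imprinted genes Peg3 fell by 5.80 times and kept its call in 3 of 13 leave-one-out fits, those without WT mouse 4, KI mouse 4 or KI mouse 5, with an adjusted p of up to 0.0195 in the others. Of the 121 calls that ended without KI mouse 4, the 10 whose log2 fold change moved most included Pdk4, Cobl (2.85 with all mice and 2.29 without), Me3 (1.69 and 1.43), Hspb8 (0.77 and 0.63) and Hsf4 (0.97 and 0.83), all highest in that mouse. The others were Gm43401, Kcne1l, 9030619P08Rik, Bpifb6 and Celsr2, with adjusted p of 0.00569 to 0.00812 with all mice and 0.0104 to 0.0182 without that mouse.

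**Figure D5:**
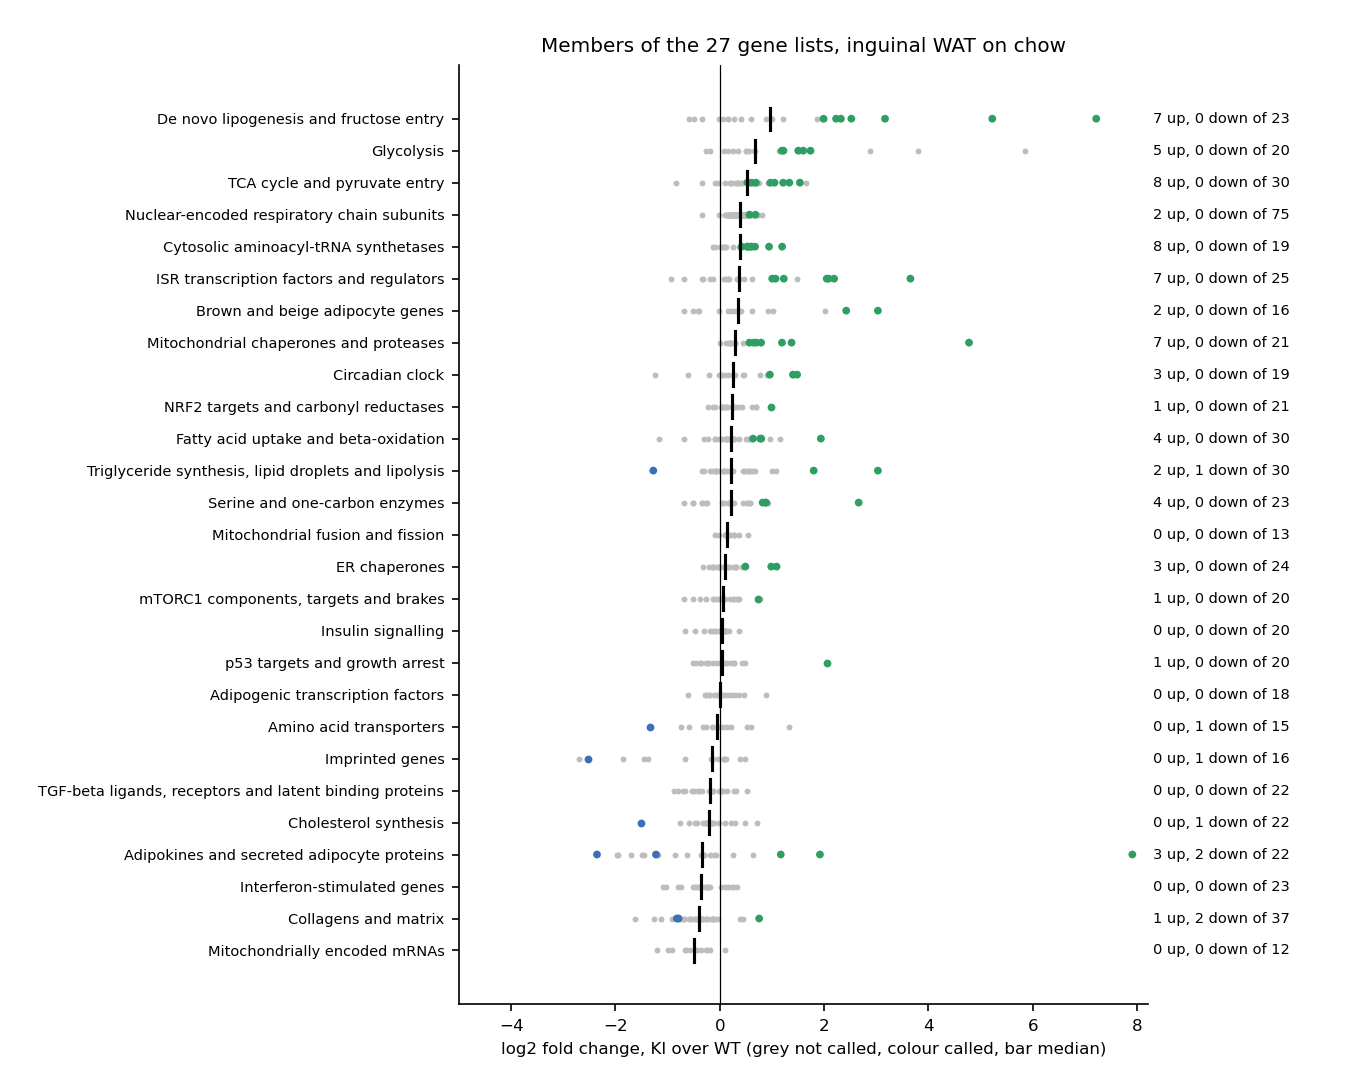
Log2 fold change of KI over WT (x axis) for every tested member of the 27 pathway lists (rows), in grey where not called, green where called higher and blue where called lower; black bars are list medians and the counts called stand at the right. Lipogenesis has the highest median (0.96) and the mitochondrially encoded mRNAs the lowest (-0.50), and tRNA synthetases have the largest share called (8 of 19).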

How the data were processed

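Per the labels and the study's methods, the authors trimmed adapters with cutadapt, aligned paired-end reads to GRCm38 with STAR and counted them per gene with featureCounts. The strand setting and versions are not given in the sources used here. The deposited tables hold raw counts, 1 column per mouse. On HFD the labels list 2 technical libraries per mouse, and how they enter the single column is not given in the sources used here. Of 54838 rows, 1884 without counts were dropped and 200 rows sharing 99 symbols, with identical counts, were kept once each, leaving 52853 genes. Brown fat was not used here.

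KI and WT were compared with the edgeR 4.0.16 quasi-likelihood test (R 4.3.3) after filterByExpr and TMM normalization, called at a Benjamini-Hochberg adjusted p below 0.01. CPM were taken on TMM-scaled library sizes. Standard errors (the values after ±) are the log2 fold change divided by the square root of F. Each mouse was a separate animal and 1 replicate. Diet differences were tested as an interaction in 1 fit. DESeq2 1.42.0 was an alternative, and normalization, filters, thresholds, muscle covariates, a replicate block and leaving out mice were varied. The fits were first tested on simulated counts.

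Members and lists were chosen with earlier results of these data known. Genes were named by rule: those of the study's text, the 15 largest rises and falls without overlap, up to 4 called each way per list, the 10 largest diet interactions and the 10 most moved calls lost without KI mouse 4. Another 52 genes, list members among them, were given with values outside the rule, after those values were seen. A few more are named without values. Some genes that the rule names are not reported here. Promoters were matched by symbol for 10719 of 14629 tested genes. Exact tests divided 13 mice in all 1716 ways, with a smallest p of 0.000583.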

Additional observations from a re-analysis of the deposited data

Results flagged for a closer look

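For 161 genes given with values, the highest and the lowest mouse of each genotype were set against Dixon's 95% critical value, which about 1 in 20 groups exceeds by chance. Of 322 groups, 49 exceeded it, and most of these involved KI mouse 1, KI mouse 4 or WT mouse 4.

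KI mouse 1 lay above the other KI mice in 24 genes. They were AA914427 (45.9 CPM), Aars (187 CPM), Acaca (2780 CPM), Angptl8 (66.7 CPM), Cfd (9220 CPM), Chchd10 (2389 CPM), Cs (896 CPM), Elovl3 (12.3 CPM), Eno1 (3121 CPM), Fasn (18930 CPM), Gm867 (272 CPM), Gpd2 (194 CPM), Hadha (644 CPM), Hebp2 (19.7 CPM), Lonp1 (478 CPM), Mmp11 (1872 CPM), Plin5 (99.1 CPM), Pth1r (231 CPM), Scd3 (16.2 CPM), Slc25a1 (3556 CPM), Slc25a20 (145 CPM), Slc2a5 (174 CPM), Srebf1 (930.2 CPM) and Tsku (195 CPM). In the chow fit that left it out 345 genes were called, 322 of them among the 479. The interaction with diet was called in 69 genes without it, against 147 with all mice. Its part in the interaction of single genes is not given here.

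KI mouse 4, the mouse with skeletal muscle transcripts, lay above the other KI mice in 7 genes. They were Cobl (24.6 CPM), Gm7609 (1.51 CPM), Vdac1 (461 CPM), mt-Co1 (12850 CPM), mt-Nd4 (4743 CPM), mt-Nd5 (2150 CPM) and mt-Nd6 (1606 CPM), and the levels of the 4 mitochondrial mRNAs were within the WT range. WT mouse 4, the mouse with mesothelial, epithelial and macrophage transcripts, lay above the other WT mice in 8 genes, namely Agt (118 CPM), Atf3 (55.8 CPM), Cobl (4.44 CPM), Gdf15 (9.63 CPM), Gm867 (13.1 CPM), Mreg (2.60 CPM), Mthfd2 (19.5 CPM) and Oma1 (19 CPM). It lay below them in Chchd3 (85.6 CPM), D430019H16Rik (6.95 CPM) and Slc7a10 (263 CPM).

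Single genes set apart the remaining mice. KI mouse 5 was the highest KI mouse in 1700047G03Rik (8.92 CPM), Folh1 (4.42 CPM) and Kcnj14 (5.63 CPM). KI mouse 6 was the highest in Xbp1 (228 CPM), KI mouse 3 the lowest in Bhlhe40 (35.3 CPM), WT mouse 1 the highest in Atp4b (0.0994 CPM) and WT mouse 2 the highest in Sez6l (18.4 CPM).

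The KI effect differed between chow and HFD, by the interaction term, in 33 of the genes given with values. The difference of the log2 fold changes, chow minus HFD, was positive for Elovl3 (8.27), Hephl1 (5.46), Slc2a5 (5.12), Atp4b (5.08), Hapln4 (5.04), Cib4 (4.30), AA914427 (3.86), Hebp2 (3.84), Elovl6 (3.55), Slc25a1 (2.91), Fasn (2.89), Angptl8 (2.85), Tsku (2.70), Acly (2.53), Pth1r (2.34), Gm867 (2.32), Mmp11 (2.18), Me1 (2.18), Chchd10 (2.15), Plin5 (1.91), Aldoa (1.55), Pkm (1.35), Eno1 (1.18), Pdhb (1.17), Gapdh (1.15), Dlat (1.12), Slc25a20 (0.86) and Gyg (0.64). The calls of Cib4, Aldoa and Gapdh ended without KI mouse 4 (adjusted p = 0.0115, 0.0134 and 0.0115), and Plin5 then lay at the threshold itself. The difference was negative for Agt (-4.67), Hspb7 (-3.75), D430019H16Rik (-2.30), Rbp4 (-1.46) and Phgdh (-0.89). Of the 479 genes called on chow, 46 had a called interaction.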

How the results depend on the processing

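All 479 called genes kept their direction without KI mouse 4, in DESeq2, in 1 fit of the 4 inguinal groups and with a replicate block, and 478 did without KI mice 3 and 4 and WT mouse 4. The count called was 1121 in DESeq2, 1156 in 1 fit of the 4 inguinal groups, 1263 at an adjusted p below 0.05 and 127 below 0.001. Stricter genes numbered 163 in DESeq2, 163 in the 4-group fit and 11 with the block, against 59. Called genes without overlap numbered 580 in DESeq2, 597 at an adjusted p below 0.05, 125 below 0.001 and 110 with the block, against 385. Genes whose KI effect differed between diets numbered 414 in DESeq2, 97 with a skeletal muscle covariate and 555 at an adjusted p below 0.05, against 147. Leaving out 1 mouse gave 285 to 509 called genes, 31 to 65 stricter genes, 267 to 460 without overlap and 69 to 269 for the diet difference. The count of calls moved by over 1.5 times without WT mouse 2 (293), WT mouse 3 (289), WT mouse 6 (285), WT mouse 7 (313) or KI mouse 2 (297). The cause of these differences was not tested, and each of these fits also held 1 mouse fewer. Sqle, near 0, changed sign without WT mouse 2, 3 or 6 (0.023, 0.012 and 0.058) or KI mouse 2, 4 or 5 (0.076, 0.024 and 0.048), and ranged from -0.201 to 0.076 over the fits without 1 mouse. The settings with 3 or 2 of KI mice 3 and 4 and WT mouse 4 left out, and library sizes recomputed after the filter, were chosen after seeing the data.

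Replicate numbers occur in both genotypes. Deviations from the group means correlated between mice of the same number at -0.276 to 0.179, so the numbers were not taken as pairs. With the number as a replicate block, 119 genes were called, 114 of them among the 479.

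Depth limited genes of low level. A floor of 3 counts per library corresponded to between 0.251 and 0.350 CPM in WT mice, and fold changes of genes near it depended on the prior count. The single founder line, the extra silent change and 1 depot at 1 age limit the comparison. Per the study's methods, littermates of both genotypes shared cages, and which mice shared one is not given in the sources used here.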

Other observations

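In the fit without KI mouse 4, 44 genes were called that were not called with all 13 mice, 18 of them higher and 26 lower in KI mice. They were looked at after their values were seen. Apart from the 4 mitochondrial mRNAs described above, 3 mitochondrial tRNA genes fell, namely mt-Tn (log2 fold change -1.61, adjusted p = 0.00153), mt-Tc (-1.54, 0.00190) and mt-Ts1 (-1.24, 0.00204). Among the other genes that fell, haptoglobin (Hp) was at -1.94 (adjusted p = 0.00264) without that mouse and at -1.30 (adjusted p = 0.0878) with it, Lrg1 at -1.66 and -1.10, and C4b at -1.24 and -0.97. Ndrg2, a stress-responsive gene that is abundant in muscle, was at -1.72 (adjusted p = 2.45e-04) without that mouse and at -1.03 (adjusted p = 0.132) with it.

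Among the 18 that rose were Plin2, a lipid droplet coat protein (log2 fold change 1.16, adjusted p = 0.00903), Slc25a39, a mitochondrial carrier that imports glutathione (0.89, 0.00888), Tbx3, a transcription factor (0.73, 0.00909), the matrix co-chaperone Grpel1 (0.51, 0.00632) and Atf6, a sensor of ER stress (0.40, 0.00898). With all mice the adjusted p of these 5 were 0.0116, 0.0112, 0.0109, 0.0145 and 0.0161, so they lay near the threshold in both fits.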
